A study of Homo sapiens with 12 samples.

Results

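RNAs with a LINC symbol, a name series for long intergenic noncoding RNAs, were taken from RNA-seq of 2 pancreatic ductal adenocarcinoma lines. The members were chosen by symbol (LINC and digits) and by level, since their mean had to reach 1 FPKM in 1 group or more. FPKM counts fragments relative to transcript length and to all mapped fragments, a level per length. Of 771 LINC symbols listed in any library, among 22650 symbols in all, 120 met this rule (15.6%). The groups were ASAP2 knockout Panc1 (Panc1 KO), wild-type Panc1 (Panc1 WT), ASAP2 knockout MiaPaCa2 (MiaPaCa2 KO) and wild-type MiaPaCa2 (MiaPaCa2 WT), with 3 libraries each. Neither a treatment nor a transgene is labelled for any group. ASAP2 encodes a GTPase-activating protein of ARF small GTPases, which act in membrane traffic and adhesion. The sources used here do not say how the knockout was made, from how many clones, or whether replicates came from separate cultures. The p-values therefore measure the spread between these libraries, which may be technical.

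Long noncoding RNAs are transcribed and spliced largely like messenger RNAs but carry no long reading frame. Most are present at low levels and in few cell types, and many start next to a coding gene, where the act of transcription or the RNA can influence that gene. Some LINC RNAs are known in carcinoma cells, and for most of the others no role is established. LINC numbers are provisional names: 18 of the 120 members have another current symbol in RefSeq, among them LINC01578 (CHASERR), LINC00346 (PRECSIT), LINC01137 (LITATS1), LINC02001 (SNHG30) and LINC00476 (ERCC6L2-AS1).

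ASAP2 had 14.2, 14.5 and 12.7 FPKM in Panc1 KO libraries, against 38.6, 37.5 and 34.6 FPKM in Panc1 WT libraries. It had 12.01, 13.8 and 11.3 FPKM in MiaPaCa2 KO libraries, against 13.2, 13.6 and 13.8 FPKM in MiaPaCa2 WT libraries. The Panc1 groups stood apart, whereas the MiaPaCa2 groups overlapped (log2 change -0.13, adjusted p = 0.197), so the genotype of the MiaPaCa2 libraries rests on their labels, and MiaPaCa2 KO stands for libraries labelled knockout throughout. Without MiaPaCa2 KO replicate 2 the ASAP2 change passed the test (-0.20, adjusted p = 0.0315). Without MiaPaCa2 KO replicate 3 it shrank to -0.067 (adjusted p = 0.523). Keratins KRT8 and KRT18 were above 300 FPKM in every library, and EPCAM averaged 3.49 and 2.63 FPKM in Panc1 KO and Panc1 WT libraries but was 0 in MiaPaCa2. CDH1, the epithelial cadherin gene, was at most 0.419 FPKM in any library. KRT19, also of the epithelial list, averaged 254 FPKM in Panc1 KO and 541 FPKM in Panc1 WT, and 35.01 FPKM in MiaPaCa2 KO and 105 FPKM in MiaPaCa2 WT libraries, and its part in the results was not tested. All 8 blood, endothelial and neuronal markers stayed below 1 FPKM in every library. Read depth is unknown, so no counting interval can be given. Correlations of log2(FPKM + 1) were 0.9962 to 0.998 within groups and 0.8986 to 0.9113 between lines.

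The starts are shown for the 4 members whose knockout effect differed at least 2-fold between the lines. LINC00261 was lower and LINC01816 higher in Panc1 KO. LINC01444 and LINC01443, which lie together, were higher in MiaPaCa2 KO. Whether the start sequences bear on these changes was not tested. Each window runs from 250 bases before to 50 bases after the start in RefSeq's promoter table, 5′ to 3′ on the gene's strand, and was placed in GRCh37 by its single exact match. The windows are chr20:22559231-22559530 (minus strand) for LINC00261, chr18:14970418-14970717 (minus) for LINC01444, chr18:14946016-14946315 (plus) for LINC01443 and chr2:70352399-70352698 (minus) for LINC01816. The first 3 windows sit at the start annotated in GENCODE, whereas the RefSeq start of LINC01816 lies 7607 bp inside the GENCODE gene. Capitals mark a match to a searched motif on either strand.
LINC00261: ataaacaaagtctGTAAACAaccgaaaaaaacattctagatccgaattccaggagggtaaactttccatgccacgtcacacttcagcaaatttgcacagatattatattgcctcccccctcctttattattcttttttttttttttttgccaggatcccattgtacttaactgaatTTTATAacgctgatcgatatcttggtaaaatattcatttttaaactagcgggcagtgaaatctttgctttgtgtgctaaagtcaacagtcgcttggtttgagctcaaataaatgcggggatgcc
LINC01444: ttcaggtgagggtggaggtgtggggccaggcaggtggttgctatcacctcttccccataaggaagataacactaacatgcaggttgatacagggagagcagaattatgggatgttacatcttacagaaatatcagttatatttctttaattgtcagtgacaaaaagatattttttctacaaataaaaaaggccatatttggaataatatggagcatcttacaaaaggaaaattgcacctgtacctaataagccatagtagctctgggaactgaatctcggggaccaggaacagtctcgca
LINC01443: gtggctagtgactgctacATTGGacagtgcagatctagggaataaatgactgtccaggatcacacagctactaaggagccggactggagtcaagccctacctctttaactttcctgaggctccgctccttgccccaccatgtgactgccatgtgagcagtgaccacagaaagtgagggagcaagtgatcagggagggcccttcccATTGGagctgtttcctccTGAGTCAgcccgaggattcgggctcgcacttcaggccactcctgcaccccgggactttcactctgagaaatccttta
LINC01816: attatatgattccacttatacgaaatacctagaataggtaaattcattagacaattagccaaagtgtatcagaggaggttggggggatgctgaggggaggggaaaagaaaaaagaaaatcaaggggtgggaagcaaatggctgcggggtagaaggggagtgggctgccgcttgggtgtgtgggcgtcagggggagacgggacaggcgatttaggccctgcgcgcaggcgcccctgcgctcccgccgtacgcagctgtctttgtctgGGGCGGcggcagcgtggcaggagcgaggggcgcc

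The motifs searched were the TATA box TATAAA, the CCAAT box CCAAT, the GC box GGGCGG, the AP-1 motif TGACTCA, the forkhead motif TGTTTAC and the cAMP response element TGACGTCA. The LINC00261 window held 1 forkhead match, present in 3.42% of all 35116 promoter windows of this length, and 1 TATA match, present in 11.5%. The LINC01443 window held 2 CCAAT matches (34.6% of all windows have at least 1) and 1 AP-1 match (4.95%), while the LINC01444 window held none of the motifs. The LINC01816 window held 1 GC box match (45.0%) and 18 CpG pairs. Across 113 windows of 96 members, 58.4% held a GC box, 39.8% a CCAAT box, 7.08% an AP-1 motif, 3.54% a forkhead motif and 7.96% a TATA box. The median GC content was 62.7% in the members' windows and 58.7% in all windows. These matches describe letters only.

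Members were low in level. Their highest group mean was 1 to 2 FPKM for 45 members, 2 to 5 FPKM for 47, 5 to 10 FPKM for 19 and at least 10 FPKM for 9. The median of this highest mean was 2.43 FPKM, against 11.04 FPKM over all symbols that reach 1 FPKM, and 7.5% of members reached 10 FPKM, against 52.7% of those symbols. The values just inside the rule were 1.04 FPKM for LINC00511 in Panc1 WT and 1.04 FPKM for LINC01356 in MiaPaCa2 KO, and the values just outside were 0.993 FPKM for LINC02175 and 0.994 FPKM for LINC02615, both in Panc1 KO. Replicate spread was wider among members at 1 FPKM or more in a group than among all symbols at 1 FPKM or more there. The members' median coefficient of variation was 9.98% in Panc1 KO, 7.71% in Panc1 WT, 11.3% in MiaPaCa2 KO and 11.1% in MiaPaCa2 WT libraries. Over all such symbols it was 5.69, 4.49, 6.94 and 5.29% in the same order. Those symbols are higher in level by the medians above, and genes of equal level were not compared. A position in GRCh37 was found for 110 members, with a median span of 10194.5 bp and a median exonic length of 3667 bp. The symbol rule admits other loci too: GENCODE types LINC00674 as a transcribed unprocessed pseudogene and LINC00999 as protein-coding. A tested coding gene is overlapped on the opposite strand by 15 members and on the same strand by 5.

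The members' FPKM summed to 295 ± 7.91 in Panc1 KO, 329 ± 4.42 in Panc1 WT, 414 ± 27.2 in MiaPaCa2 KO and 375 ± 13.5 in MiaPaCa2 WT libraries (SD, n = 3 each). The higher sums of MiaPaCa2 came from LINC02154 alone. Without it the order of the wild-type lines turned round, with sums of 328 ± 3.61 FPKM in Panc1 WT and 262 ± 5.60 FPKM in MiaPaCa2 WT libraries. The KO sums without it were 295 ± 7.91 FPKM in Panc1 and 289 ± 4.15 FPKM in MiaPaCa2, and these libraries overlapped (SD, n = 3 each). LINC02154 (chrX:13284160-13321571, minus strand) had 108, 152 and 116 FPKM in MiaPaCa2 KO libraries, against 122, 106 and 110 FPKM in MiaPaCa2 WT libraries. In Panc1 it was listed above 0 only in KO replicate 3 (0.358 FPKM) and WT replicate 1 (1.43 FPKM). It was thus the most abundant member in MiaPaCa2 and near the floor in Panc1, with overlapping genotypes in both lines. In Panc1 the highest members were LINC00673, described in pancreatic and other carcinomas, with 21.6 ± 0.293 FPKM in KO and 23.8 ± 0.215 FPKM in WT libraries, and LINC01578, with 18.4 ± 1.22 FPKM in KO and 23.0 ± 1.77 FPKM in WT libraries (SD, n = 3 each).

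The first comparison asked how the lines differ without the knockout. Of the 120 members, 58 reached 1 FPKM in both lines (49 of them in all 4 groups), 30 in Panc1 only and 32 in MiaPaCa2 only. Differences were tested with limma on log2(FPKM + 1). A gene was tested where the 6 libraries of a line averaged 1 FPKM or more, which 112 members passed and 8 did not. A change passed at an adjusted p below 0.05 over all 13340 genes tested. Between wild-type Panc1 and wild-type MiaPaCa2, 46 members were higher and 45 lower in Panc1, 81.2% of those tested, where 82.7% of all genes passed, 41.8% higher and 40.9% lower. At least 2-fold on this scale were 21 higher (14.7% of all genes) and 22 lower (10.2% of all genes). Since membership asks for 1 FPKM in any one group, a member far below that in the other line had to differ, so these counts describe the members. The split depended on scaling: it was 36 higher and 57 lower after quantile normalization (37.4% and 45.2% of all genes) and 51 and 42 after rescaling to equal sums (45.7% and 36.9% of all genes).

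**Figure D1:**
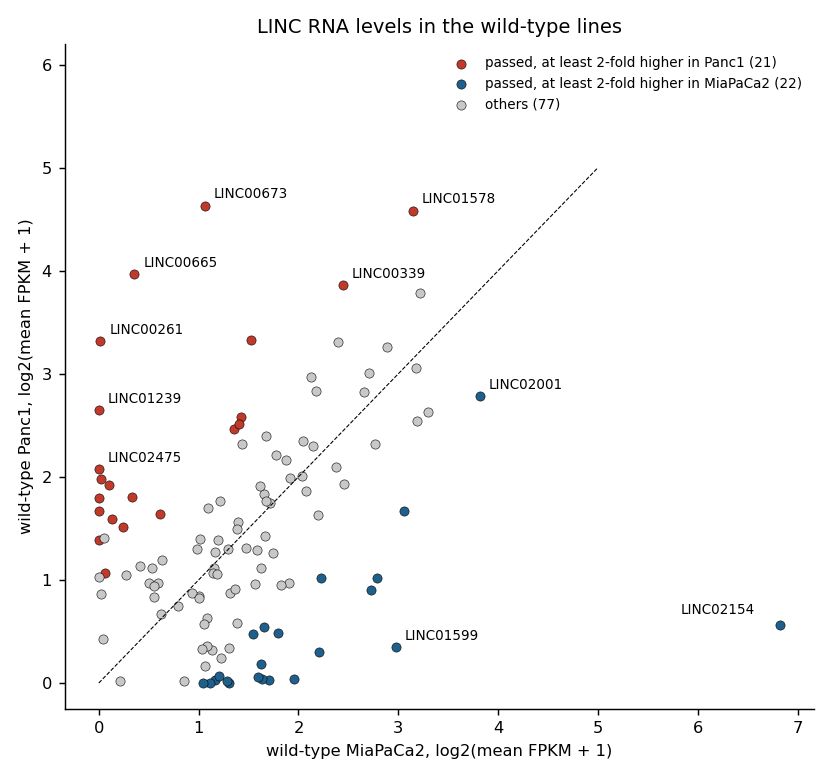
Level of each of the 120 members in wild-type Panc1 (vertical axis) and wild-type MiaPaCa2 (horizontal axis), as log2 of the mean FPKM of 3 libraries plus 1; the dashed line marks equal levels. Red and blue points passed the test at 2-fold or more, 21 higher in Panc1 and 22 higher in MiaPaCa2, and grey points are the 77 others, 8 of them not tested. LINC02154 lies far to the right at 113 FPKM in MiaPaCa2.

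Among members high in Panc1, LINC00665 had 15.7, 13.6 and 14.6 FPKM in Panc1 WT, against 0.349, 0.134 and 0.352 FPKM in MiaPaCa2 WT libraries (log2 difference 3.62, SE 0.07, adjusted p = 8.39e-14). LINC00673 had 23.9, 23.6 and 24.0 FPKM in Panc1 WT, against 0.865, 1.26 and 1.14 FPKM in MiaPaCa2 WT libraries (3.57, SE 0.07, adjusted p = 4.87e-14). For both, every Panc1 library lay above every MiaPaCa2 library. LINC01239 (5.61, 5.67 and 4.53 FPKM) and LINC02475 (3.21, 2.95 and 3.49 FPKM) were seen in Panc1 WT and were at 0 in all 6 MiaPaCa2 libraries, where a gene absent from a file was taken as 0. LINC01770 had 2.61, 3.48 and 2.72 FPKM in Panc1 WT, against 0.052, 0 and 0 FPKM in MiaPaCa2 WT libraries.

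Among members high in MiaPaCa2 after LINC02154, LINC01599 had 0.337, 0.405 and 0.08 FPKM in Panc1 WT, against 6.85, 6.198 and 7.52 FPKM in MiaPaCa2 WT libraries (log2 difference -2.63, SE 0.13, adjusted p = 4.42e-10). LINC00649 had 0, 0.045 and 0.044 FPKM in Panc1 WT, against 3.08, 2.91 and 2.64 FPKM in MiaPaCa2 WT libraries (-1.91, SE 0.06, adjusted p = 3.01e-12). These groups did not overlap. LINC01629 averaged 0.231 ± 0.0552 FPKM in Panc1 WT and 3.61 ± 0.597 FPKM in MiaPaCa2 WT libraries, LINC01842 averaged 0.870 ± 0.285 and 5.63 ± 0.713 FPKM, and LINC01588 averaged 1.02 ± 0.222 and 5.91 ± 0.423 FPKM in the same order (SD, n = 3 each). Their log2 differences were -1.90, -1.83 and -1.78, each past the test.

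Stricter still, 11 members reached 1 FPKM in a Panc1 group and stayed below 0.1 FPKM in both MiaPaCa2 groups, and 12 did the reverse. The Panc1 members, in order of their highest mean, began with LINC00261 (8.96 FPKM in WT), LINC01239 (5.27 FPKM in WT), LINC01137 (3.98 FPKM in KO), LINC02475 (3.22 FPKM in WT), LINC01770 (3.09 FPKM in KO) and LINC02610 (2.46 FPKM in WT). LINC01137, also called LITATS1, is known as a TGF-beta-induced RNA that restrains TGF-beta signalling. The MiaPaCa2 members began with LINC00649 (3.32 FPKM in KO), LINC01204 (3.18 FPKM in KO), LINC01443 (2.97 FPKM in KO), LINC01010 (2.36 FPKM in KO), LINC01776 (2.09 FPKM in KO) and LINC02101 (1.57 FPKM in KO). LINC01443 belongs to this set through the knockout group alone.

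The second comparison asked what the ASAP2 knockout changed in Panc1. There 21 members were higher and 34 lower in KO, 55 members or 49.1% of those tested, where 63.5% of all genes passed, 21.8% higher and 41.6% lower. Groups did not overlap for 64 members (57.1%), against 70.1% of all genes. Past 2-fold were LINC01816 upward (1.47% of all genes) and LINC00261 and LINC01843 downward (1.26%). The median log2 change was -0.065 over the members and -0.102 over all genes tested. Rescaling by the median ratio, which moved the median of all genes to -0.00974, gave 26 higher and 28 lower members, with 30.3% and 31% of all genes. Quantile normalization gave 27 and 29 members, with 29.5% and 32% of all genes. In bulk RNA, fewer cells with a transcript and less transcript per cell cannot be told apart.

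LINC00261 had the largest change in Panc1. It is a noncoding RNA of endoderm and its derivatives, transcribed beside FOXA2, which encodes a forkhead factor of endoderm. It had 2.17, 2.32 and 2.39 FPKM in Panc1 KO libraries, against 9.06, 8.75 and 9.06 FPKM in Panc1 WT libraries. The KO values were close together and all far below the WT values (log2 change -1.60, SE 0.05, adjusted p = 1.64e-10). Relative to the median of all genes the change was -1.49. In MiaPaCa2 it was 0 in all libraries but WT replicate 1, at 0.028 FPKM. LINC00261 lies at chr20:22528301-22559280 on the minus strand, and FOXA2 is the nearest tested coding gene, at a distance of 2356 bp. FOXA2 had 22.9, 24.4 and 26.8 FPKM in Panc1 KO, against 23.6, 22.9 and 26.1 FPKM in Panc1 WT libraries, and these groups overlapped (0.03, SE 0.07, adjusted p = 0.749). In MiaPaCa2 FOXA2 was 0 in all libraries but WT replicate 1, at 0.057 FPKM. Both genes were thus seen in Panc1, where the knockout libraries differed in LINC00261.

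**Figure D2:**
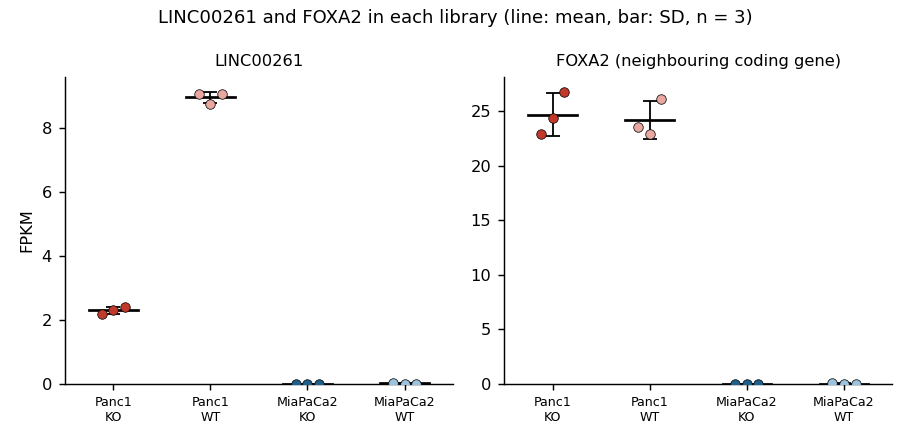
FPKM of LINC00261 (left) and of the neighbouring coding gene FOXA2 (right) in each library, with the mean and SD of 3 libraries per group. LINC00261 sits near 2.3 FPKM in Panc1 KO and near 9 FPKM in Panc1 WT, while FOXA2 lies between 22.9 and 26.8 FPKM in both; both are at or near 0 in MiaPaCa2.

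Other members fell in Panc1 KO. LINC01843 had 1.42, 1.94 and 1.75 FPKM in KO, against 5.14, 4.72 and 4.25 FPKM in WT libraries (log2 change -1.08, SE 0.15, adjusted p = 6.44e-05). LINC02057 had 0.797, 0.662 and 0.782 FPKM in KO, against 2.02, 2.41 and 1.62 FPKM in WT libraries (-0.78, SE 0.10, adjusted p = 2.02e-05). It reached 1 FPKM in Panc1 WT alone, so some difference was built into its membership. LINC02475 had 2.34, 1.46 and 1.27 FPKM in KO, against 3.21, 2.95 and 3.49 FPKM in WT libraries (-0.67, adjusted p = 0.00021). LINC00260 averaged 0.723 ± 0.12 FPKM in KO and 1.69 ± 0.212 FPKM in WT libraries (-0.64, adjusted p = 5.24e-06), and LINC00997 averaged 2.33 ± 0.186 and 3.998 ± 0.169 FPKM (-0.59, adjusted p = 2.38e-06; SD, n = 3 each). None of these 5 had overlapping genotypes in Panc1. Among abundant members, LINC00941, described in pancreatic and colorectal carcinoma, had 9.12, 9.43 and 8.89 FPKM in KO, against 13.4, 12.3 and 12.5 FPKM in WT libraries (-0.44, SE 0.05, adjusted p = 5.02e-06). It overlaps CAPRIN2 on the other strand, which also fell (-0.72), and reads of such genes cannot be told apart, because no source says whether counting used the strand. LINC00339 fell as well (10.4 ± 0.678 FPKM in KO and 13.5 ± 0.952 FPKM in WT libraries, -0.35, adjusted p = 0.00137).

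Members that rose in Panc1 KO were led by LINC01816 (chr2:70351166-70360055, minus strand). It had 5.22, 6.91 and 7.67 FPKM in KO, against 2.49, 3.02 and 2.77 FPKM in WT libraries (log2 change 1.004, SE 0.13, adjusted p = 2.92e-05). Every KO library lay above every WT library. In MiaPaCa2 it had 1.68, 0.988 and 1.65 FPKM in KO, against 1.98, 1.92 and 2.28 FPKM in WT libraries, a change of the other sign that did not pass (-0.34, adjusted p = 0.0634). LINC00963 had 8.42, 7.92 and 7.48 FPKM in KO, against 4.87, 4.77 and 3.89 FPKM in WT libraries (0.70, SE 0.12, adjusted p = 0.000227). LINC01061 had 1.80, 1.79 and 1.61 FPKM in KO, against 0.732, 0.772 and 0.82 FPKM in WT libraries (0.62, SE 0.06, adjusted p = 4.62e-06). LINC01138 averaged 1.69 ± 0.18 FPKM in KO and 0.818 ± 0.103 FPKM in WT libraries (0.56, adjusted p = 6.49e-06; SD, n = 3 each), and was a member through Panc1 KO alone. LINC01137 (LITATS1) had 3.56, 3.23 and 5.14 FPKM in KO, against 2.84, 2.72 and 2.79 FPKM in WT libraries (0.38, adjusted p = 0.00918), a call lost with a pseudocount of 0.1 (adjusted p = 0.132). KO replicate 3 was the highest library, and without it the change was 0.21 (adjusted p = 0.015).

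LINC01023 (0.54, adjusted p = 0.0328) and LINC02478 (0.46, adjusted p = 0.0187) also rose at low levels in Panc1 KO, with calls that depended on single libraries. LINC01023 had 1.75, 0.854 and 0.631 FPKM in KO, against 0.277, 0.587 and 0.34 FPKM in WT libraries. Its change was 0.32 (adjusted p = 0.156) without Panc1 KO replicate 1, and its adjusted p was 0.0996 without Panc1 WT replicate 1 and 0.0817 without Panc1 WT replicate 3. LINC02478 had 0.691, 0.752 and 0.433 FPKM in KO, against 0.123, 0.277 and 0.138 FPKM in WT libraries, without overlap. Its change stayed between 0.40 and 0.55 with any one library left out, while its adjusted p was 0.0559 and 0.0669 without Panc1 KO replicates 1 and 2, and 0.0575 and 0.0526 without Panc1 WT replicates 1 and 3.

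The members not tested are given by their values. LINC02432 had 0.159, 0.06 and 0 FPKM in Panc1 KO, against 1.57, 1.69 and 1.68 FPKM in Panc1 WT libraries. LINC00511, described in breast and other carcinomas, had 0.455, 0.325 and 0.162 FPKM in Panc1 KO, against 1.10, 0.927 and 1.08 FPKM in Panc1 WT libraries. LINC02381 had 0.927, 1.21 and 1.06 FPKM in Panc1 KO, against 0.352, 0.447 and 0.226 FPKM in Panc1 WT libraries. The Panc1 groups did not overlap for these 3. The others, LINC00638, LINC01356, LINC01910, LINC02256 and LINC02298, had highest group means between 1.04 and 1.12 FPKM. Among them LINC00638 was also separate in Panc1, with 1.02, 1.10 and 1.07 FPKM in KO, against 0.537, 0.551 and 0.951 FPKM in WT libraries. In MiaPaCa2 the KO libraries of LINC00638 and LINC01356 lay above the WT libraries. Over all tested genes 70.1% did not overlap in Panc1 and 43.5% in MiaPaCa2. All 8 reached 1 FPKM in 1 group only, as did 15 tested members, so part of a gap to that group was built into membership.

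**Figure D3:**
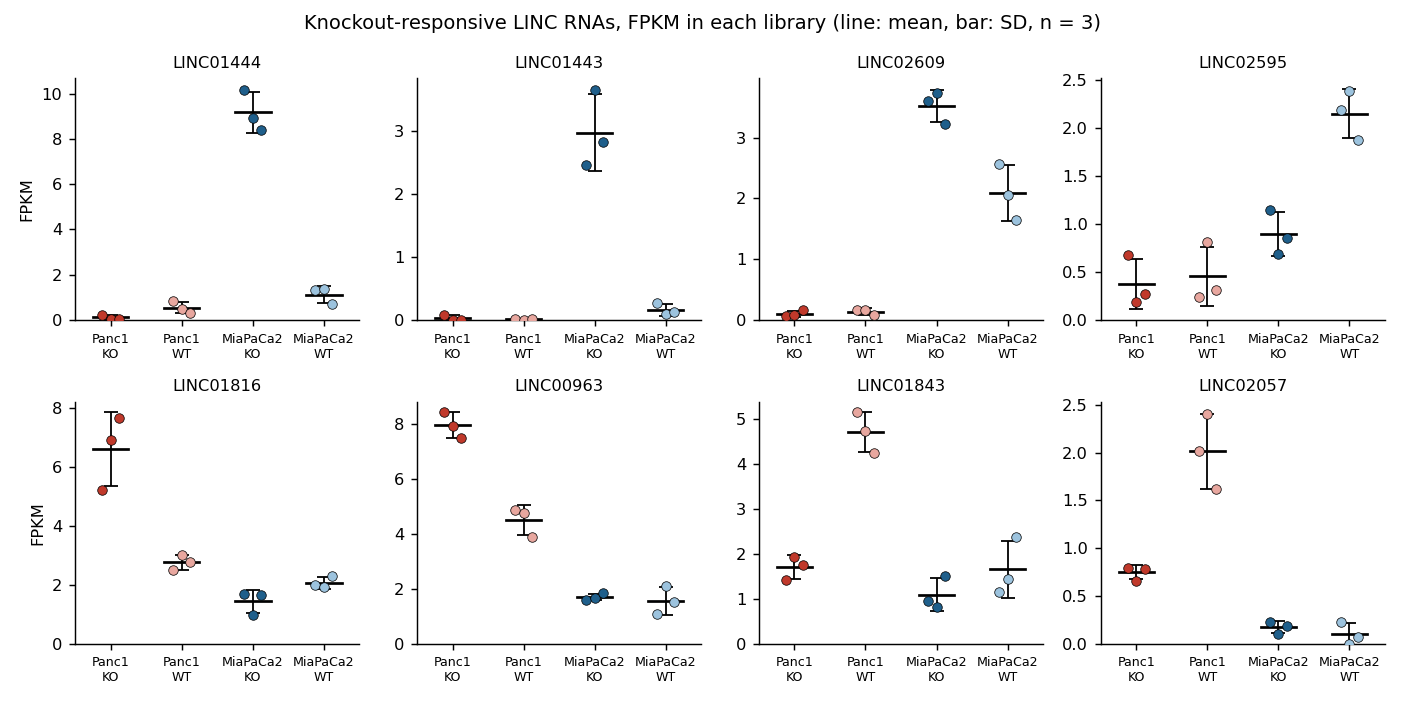
FPKM in each library of 8 members with called changes, in the order Panc1 KO, Panc1 WT, MiaPaCa2 KO and MiaPaCa2 WT; the horizontal line is the mean and the bar the SD of 3 libraries. LINC01444 and LINC01443 reach 8.40 to 10.2 and 2.45 to 3.65 FPKM in MiaPaCa2 KO libraries and are low elsewhere, whereas LINC01816 and LINC00963 are highest in Panc1 KO and LINC01843 and LINC02057 in Panc1 WT.

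The third comparison asked the same of MiaPaCa2, by its labels. There 20 members were higher and 9 lower in KO, 25.9% of those tested, where 34.1% of all genes passed, 17.8% higher and 16.3% lower. Groups did not overlap for 37 members (33.0%), against 43.5% of all genes. Past 2-fold were LINC01444 and LINC01443, both upward (0.382% of all genes), and no member downward (0.36% of all genes). The median log2 change was 0.0478 over the members and 0.0109 over all genes tested. With MiaPaCa2 fitted alone, 14 members were higher and 5 lower, with 12.4% and 11.8% of all genes.

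LINC01444 and LINC01443 lie together on chromosome 18, and neither has a tested coding gene within 100 kb. LINC01443 spans chr18:14946266-14974214 on the plus strand, and LINC01444 lies inside that span, at chr18:14969000-14970467 on the minus strand. LINC01444 had 10.2, 8.94 and 8.40 FPKM in MiaPaCa2 KO libraries, against 1.32, 1.36 and 0.698 FPKM in MiaPaCa2 WT libraries (log2 change 2.27, SE 0.14, adjusted p = 2.82e-07). LINC01443 had 2.45, 3.65 and 2.82 FPKM in MiaPaCa2 KO libraries, against 0.266, 0.09 and 0.128 FPKM in MiaPaCa2 WT libraries (1.77, SE 0.10, adjusted p = 8.65e-08). All KO libraries were far above all WT libraries for both. In LINC01443 part of this gap is set by the rule, since it reached 1 FPKM in MiaPaCa2 KO alone. Reads of this pair cannot be told apart where they overlap, so the changes may not be independent. In Panc1 LINC01444 had 0.233, 0.062 and 0.06 FPKM in KO, against 0.839, 0.489 and 0.326 FPKM in WT libraries, a fall (-0.46, adjusted p = 0.0115) whose adjusted p was 0.0581 without Panc1 WT replicate 1. LINC01443 was at most 0.082 FPKM in any Panc1 library. Their start windows shared none of the motifs searched.

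Further members rose in MiaPaCa2 KO. LINC00525 had 1.99, 2.71 and 2.23 FPKM in KO, against 1.58, 1.08 and 0.906 FPKM in WT libraries (log2 change 0.60, SE 0.10, adjusted p = 0.00087). LINC02609 had 3.61, 3.74 and 3.23 FPKM in KO, against 2.57, 2.06 and 1.64 FPKM in WT libraries (0.56, SE 0.09, adjusted p = 0.000769). LINC01204, on chromosome X, had 3.12, 3.16 and 3.25 FPKM in KO, against 2.47, 1.95 and 1.91 FPKM in WT libraries (0.43, SE 0.07, adjusted p = 0.000444). LINC00106 averaged 1.71 ± 0.386 FPKM in KO and 1.01 ± 0.24 FPKM in WT libraries (0.43, adjusted p = 0.00845; SD, n = 3 each), and its adjusted p was 0.0594 with MiaPaCa2 fitted alone. KO and WT values did not overlap for any of these 4. LINC00649 (0.16, adjusted p = 0.0468) lost its call without MiaPaCa2 WT replicates 2 and 3 or KO replicates 1 and 3 (adjusted p between 0.0931 and 0.196), and in 10 other settings, 5 of which leave out a Panc1 library (WT replicates 1 to 3, KO replicates 2 and 3).

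Among members that fell in MiaPaCa2 KO, LINC02595 had 1.15, 0.693 and 0.852 FPKM in KO, against 2.19, 2.39 and 1.88 FPKM in WT libraries (log2 change -0.74, SE 0.15, adjusted p = 0.0032), and reached 1 FPKM in MiaPaCa2 WT alone. LINC00853, also a member through that group alone, averaged 0.719 ± 0.153 FPKM in KO and 1.31 ± 0.373 FPKM in WT libraries (-0.42, adjusted p = 0.00599; 0.0564 with the line fitted alone). LINC01963 averaged 2.16 ± 0.277 and 3.22 ± 0.262 FPKM in the same order (-0.42, adjusted p = 0.00358; SD, n = 3 each). LINC01224 had 2.90, 2.12 and 2.91 FPKM in KO, against 3.44, 3.82 and 3.45 FPKM in WT libraries (-0.33, adjusted p = 0.0167), and its adjusted p was 0.0563 without MiaPaCa2 KO replicate 2 and 0.0655 without MiaPaCa2 WT replicate 2. LINC02593 fell at 0.239 ± 0.0675 FPKM in KO and 0.532 ± 0.119 FPKM in WT libraries (-0.30, adjusted p = 0.0119), with an adjusted p of 0.057 without MiaPaCa2 WT replicate 3. LINC01003 had 5.79, 5.998 and 6.14 FPKM in KO, against 7.71, 6.92 and 7.33 FPKM in WT libraries (-0.25, adjusted p = 0.00844). The genotypes were separate in MiaPaCa2 for these 6.

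The lines share no libraries, and 11 members passed in both, 9.82% of those tested, where 21.5% of all genes did. The members were 4 higher in both (5% of all genes), 2 lower in both (6.34%), 5 lower in Panc1 KO and higher in MiaPaCa2 KO (6.04%) and 0 the opposite way (4.07%). They are named here after their values were seen. Higher in both KO groups were LINC00174 (log2 change 0.36 in Panc1 and 0.29 in MiaPaCa2), LINC00467 (0.42 and 0.38), LINC01061 (0.62 and 0.29) and LINC01270 (0.37 and 0.38). LINC01270 reached 1 FPKM in Panc1 KO alone, so part of its Panc1 difference was built into its membership. Lower in both were LINC00476 (-0.35 and -0.17) and LINC01963 (-0.48 and -0.42). Lower in Panc1 KO and higher in MiaPaCa2 KO were LINC00525 (-0.28 and 0.60), LINC00857 (-0.42 and 0.23), LINC00909 (-0.22 and 0.26), LINC00997 (-0.59 and 0.27) and LINC01444 (-0.46 and 2.27). The LINC00467 change in MiaPaCa2 (adjusted p = 0.0165) was not called without MiaPaCa2 WT replicate 2 (adjusted p = 0.0742) or 3 (0.0613). LINC00525 had 0.079, 0 and 0 FPKM in Panc1 KO, against 0.264, 0.236 and 0.234 FPKM in Panc1 WT libraries. This Panc1 call was lost without any one of 5 of the 6 Panc1 libraries (adjusted p between 0.06 and 0.0828), KO replicate 1 being the exception. It was also lost under quantile normalization (-0.15, adjusted p = 0.204), with no filter (adjusted p = 0.0609) and with the replicate block (adjusted p = 0.0592). Of the 5 members with opposite signs, LINC00997 had 2.12, 2.40 and 2.47 FPKM in Panc1 KO, against 4.06, 3.81 and 4.13 FPKM in Panc1 WT libraries. It had 2.25, 2.21 and 2.31 FPKM in MiaPaCa2 KO, against 1.77, 1.69 and 1.63 FPKM in MiaPaCa2 WT libraries. Its genotypes did not overlap in either line.

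The knockout effect itself differed between the lines, by the interaction term, for 52 members or 46.4%, where 57.4% of all genes passed. The effect was higher in Panc1 for 16 members (20% of all genes) and lower for 36 (37.4% of all genes). At least 2-fold were 1 higher, LINC01816 (1.85% of all genes), and 3 lower, LINC01444, LINC01443 and LINC00261 (2.02% of all genes). The median of all genes was -0.125, and moved by more than 0.1 under median-ratio scaling, to -0.00906, which gave 20 higher and 31 lower members (27.6% and 26.4% of all genes). Quantile normalization gave 24 and 26 (25.4% and 27.8%), and rescaling to equal sums 12 and 42 (16.7% and 43.8%). The differences were largest for LINC01444 (-2.73, SE 0.20, adjusted p = 4.62e-07; -2.61 relative to the median of all genes), LINC01443 (-1.74, SE 0.13, adjusted p = 8.01e-07; -1.62 relative), LINC00261 (-1.58, SE 0.07, adjusted p = 7.94e-09; -1.46 relative), LINC01816 (1.34, SE 0.18, adjusted p = 7.59e-05; 1.47 relative) and LINC00525 (-0.88, SE 0.15, adjusted p = 0.000299; -0.76 relative). For LINC00261, which is at or near 0 in MiaPaCa2, and for LINC01443, near 0 in Panc1, the difference is the change in the line where the gene is seen.

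**Figure D4:**
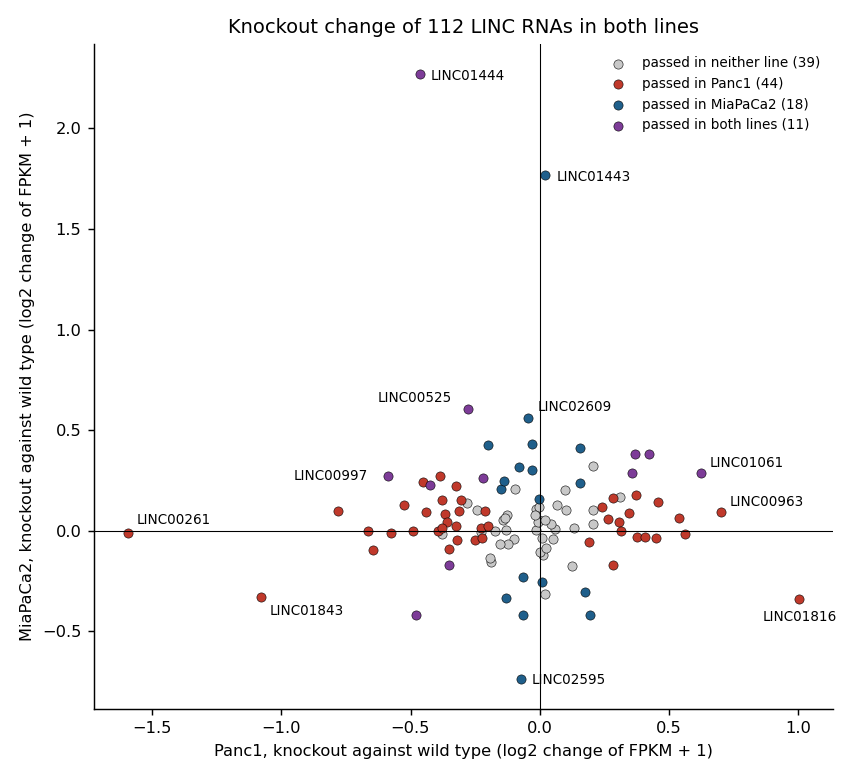
Knockout change on the log2(FPKM + 1) scale of the tested members in Panc1 (horizontal axis) and MiaPaCa2 (vertical axis), coloured by the lines in which the adjusted p was below 0.05. In all, 44 passed in Panc1 alone, 18 in MiaPaCa2 alone, 11 in both and 39 in neither, and LINC01444, LINC01443, LINC00261, LINC01843 and LINC01816 lie farthest from the centre.

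Positions were set beside those of coding genes, since divergent transcription is common for long noncoding RNAs. A tested coding gene lay within 100 kb of 88 members, and for 18 of them one started within 2 kb on the other strand. In these 18 divergent pairs, RNA and coding gene had the same sign of change in 14 pairs in Panc1 KO, in 9 pairs in MiaPaCa2 KO and in 16 pairs between the wild-type lines. Both partners passed the test in 4, 1 and 12 pairs for these comparisons, always in the same direction. The coding gene alone passed in 9, 2 and 3 pairs, and the LINC RNA alone in 2, 4 and 1. Of all genes 63.5%, 34.1% and 82.7% passed, and whether both partners passed more often than by these shares was not tested. Pearson's r across the pairs was 0.514, 0.461 and 0.707, against 0.168, 0.315 and 0.454 across 81 pairs of tested members with the nearest coding gene. The 81 include the divergent pairs except LINC01089 with SETD1B and LINC01770 with VWA1, so the sets are not separate. Of those 81, 46, 49 and 54 pairs had the same sign, so in MiaPaCa2 the divergent pairs did not share a sign more often. Pairs share libraries, and 6 of the divergent pairs overlap in sequence, so these are descriptions.

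**Figure D5:**
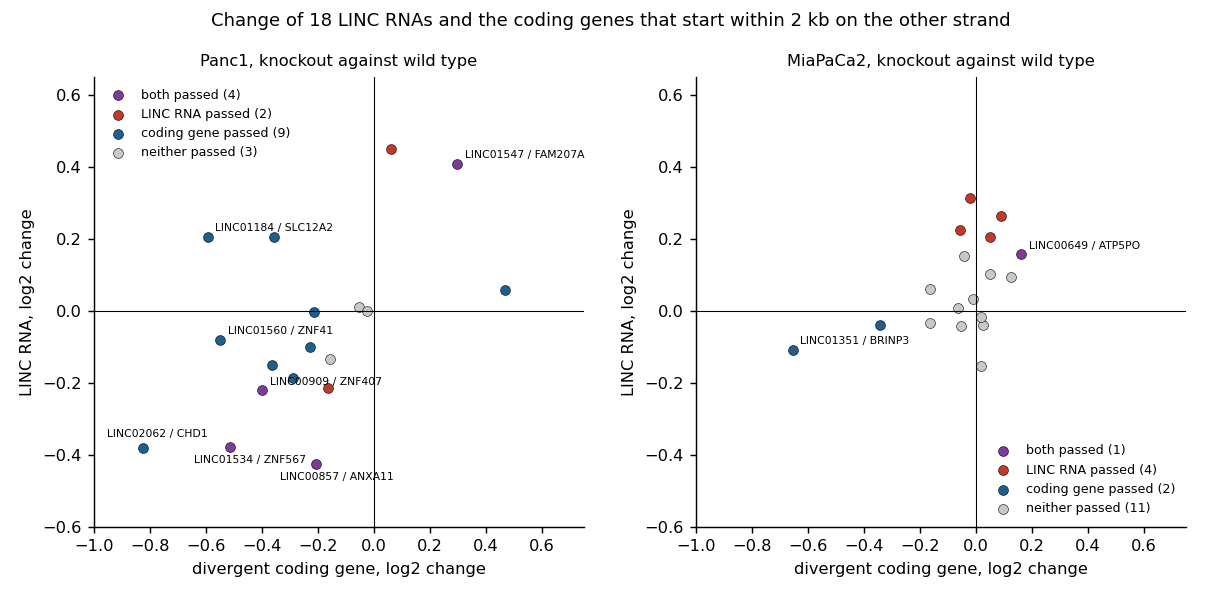
Log2 change in KO against WT of 18 members (vertical axis) and of the coding genes that start within 2 kb on the other strand (horizontal axis), in Panc1 (left) and MiaPaCa2 (right). Both partners passed in 4 pairs in Panc1 and in 1 pair in MiaPaCa2, all in the quadrants of equal sign. Of all genes 63.5% passed in Panc1 and 34.1% in MiaPaCa2. The MiaPaCa2 pair rests on LINC00649, whose call was lost in 14 settings.

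The pairs that passed together in Panc1 KO were LINC00857 (-0.42) with ANXA11 (-0.21), an annexin gene 1800 bp away, LINC00909 (-0.22) with the zinc finger gene ZNF407 (-0.40), LINC01534 (-0.38) with ZNF567 (-0.51), and LINC01547 (0.41) with FAM207A (0.30). In MiaPaCa2 KO it was LINC00649 (0.16) with ATP5PO (0.16), which encodes a subunit of ATP synthase and overlaps LINC00649, whose call was lost in 14 settings (adjusted p up to 0.344). In other pairs the coding gene alone passed in Panc1, as for CHD1 (-0.82), a chromatin remodeller gene 156 bp from LINC02062 (-0.38), and SLC12A2 (-0.59), a sodium-potassium-chloride cotransporter gene 594 bp from LINC01184, which had the other sign (0.21). Between the wild-type lines, LINC01770 (1.95) and the extracellular matrix gene VWA1 (5.31), 288 bp apart, were both higher in Panc1, and LINC01351 (-1.30) and BRINP3 (-2.31), 147 bp apart, both higher in MiaPaCa2. LINC01578, known in mouse as Chaserr to restrain the adjacent Chd2, fell in Panc1 KO (19.8, 17.6 and 17.8 FPKM in KO, against 22.6, 21.4 and 24.9 FPKM in WT libraries, -0.30, adjusted p = 0.00557), a call lost under median-ratio scaling (-0.19, adjusted p = 0.051). CHD2 had 14.3, 12.7 and 11.4 FPKM in Panc1 KO, against 12.2, 12.3 and 10.7 FPKM in Panc1 WT libraries, which overlapped (0.11, adjusted p = 0.392). LINC01578 and CHD2 overlap on the same strand, so their reads cannot be fully told apart.

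From a list of 21 LINC RNAs described in cancer cells, 16 symbols were listed in any library, 11 were members and 10 were tested. A later symbol was listed for 4 of the 21, so being no member does not always mean a low level. In Panc1 KO 3 rose, 3 fell and 4 did not pass, with a median log2 change of -0.113. The 6 called are 60% of those tested, near the 63.5% of all genes. The 3 that rose were LINC00346 (1.47 ± 0.116 FPKM in KO and 1.17 ± 0.00945 FPKM in WT libraries, 0.19), LINC00467 (5.70 ± 0.809 and 3.99 ± 0.428 FPKM, 0.42) and LINC01116 (2.26 ± 0.267 and 1.61 ± 0.117 FPKM, 0.32; SD, n = 3 each). The 3 that fell were LINC00261, LINC00941 and LINC01578. In MiaPaCa2 KO LINC00467 alone rose and 0 fell, so 10% of those tested passed, where 34.1% of all genes did. Between the wild-type lines 7 were higher and 2 lower in Panc1, 70% and 20% of those tested, against 41.8% and 40.9% of all genes. Together 90% passed, where 82.7% of all genes did. The median was 1.27, against 0.00443 over all genes. The list was chosen with earlier results of these data known, and whether it differs from all genes was not tested. LINC00473, a CREB-induced RNA, was one of the 2 lower in Panc1, with 0, 0 and 0 FPKM in Panc1 WT, against 1.26, 0.941 and 1.31 FPKM in MiaPaCa2 WT libraries. From a list of 7 LINC symbols known to encode microproteins, 0 were members, because all 7 genes are listed under their later symbols.

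Other noncoding classes were set beside the members by the same level rule and fit. Of 372 tested antisense symbols 67 were higher and 107 lower in Panc1 KO, and 53 and 38 in MiaPaCa2 KO. Of 21 small nucleolar RNA host genes of the SNHG series 2 were higher and 11 lower in Panc1 KO, and 5 and 1 in MiaPaCa2 KO, with median log2 changes of -0.362 and 0.0357. Of 15 tested microRNA host genes 2 were higher and 7 lower in Panc1 KO, and 1 and 3 in MiaPaCa2 KO. In Panc1 KO 46.8% of the antisense symbols, 61.9% of the SNHG genes and 60.0% of the microRNA host genes passed. There 63.5% of all genes passed, 21.8% higher and 41.6% lower. In MiaPaCa2 KO the shares were 24.5%, 28.6% and 26.7%, where 34.1% of all genes passed, 17.8% higher and 16.3% lower. Whether these classes differ from the LINC members or from all genes was not tested.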

How the data were processed

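Total RNA of 12 libraries was sequenced on a BGISEQ-500, per the labels' protocols. Per the submitters' processing notes and the design text, trimmed reads were aligned to hg19 with TopHat2 2.0.14, and FPKM per gene symbol was computed with STAR 2.5.2a. The deposited FPKM values were used as they are, with an absent symbol taken as 0. The sources used here give no strand use, read length or depth.

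The fit was limma 3.58.1 (R 4.3.3) on log2(FPKM + 1) with 4 group means over 12 libraries (8 residual degrees of freedom), and a mean-variance trend. Tests were two-sided, with Benjamini-Hochberg adjustment over the 13340 genes that averaged 1 FPKM or more in the 6 libraries of either line. It was tested on simulated data. Folds on this scale understate changes of low genes. Positions came from GENCODE release 44 mapped to GRCh37. Named members are the highest, those with the largest changes without overlap (6 each way), the line-restricted and the listed ones. The members and lists were chosen with earlier results of these data known. Alternatives were another pseudocount, filter or scaling, no trend, lines fitted alone, a replicate block and each library left out.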

Additional observations from a re-analysis of the deposited data

Results flagged for a closer look

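The knockout effect differed between the lines, by limma's interaction term at an adjusted p below 0.05, for 28 of the named members. Of all genes 57.4% passed. Many of these members were named for a large knockout change or a large difference of the effects, so their number describes that choice. LINC00853, LINC01138, LINC01443, LINC02057 and LINC02595 reached 1 FPKM in 1 group only, so part of their value was built into membership. The values are the log2 change in Panc1 minus that in MiaPaCa2. It was lower in Panc1 for LINC01444 (-2.73), LINC01443 (-1.74), LINC00261 (-1.58), LINC00525 (-0.882), LINC02057 (-0.878), LINC00997 (-0.858), LINC01843 (-0.749), LINC02475 (-0.665), LINC00106 (-0.626), LINC02609 (-0.604), LINC00260 (-0.546), LINC00941 (-0.531), LINC01204 (-0.460), LINC01578 (-0.454), LINC01239 (-0.392) and LINC02610 (-0.388). It was higher in Panc1 for LINC01816 (1.34), LINC02595 (0.662), LINC01629 (0.612), LINC00963 (0.609), LINC01138 (0.581), LINC02593 (0.478), LINC01137 (0.406), LINC00853 (0.355), LINC01061 (0.335), LINC01116 (0.316), LINC01003 (0.263) and LINC00346 (0.246). LINC01116, LINC01239 and LINC02475 are at 0 in all MiaPaCa2 libraries, so their value is the Panc1 change alone, and LINC00261, LINC01137, LINC01138 and LINC02610 are below 0.1 FPKM on average there. LINC00853, LINC01204 and LINC01443 are below 0.1 FPKM on average in both Panc1 groups, so their value is in the main the MiaPaCa2 change. Without Panc1 KO replicate 3 the LINC01137 value was 0.245, and without MiaPaCa2 WT replicate 2 the LINC00853 value was 0.227. ASAP2 itself was lower in Panc1 KO and did not pass in MiaPaCa2 KO, and its part in these differences was not tested. Groups of 3 libraries were not searched for single outlying samples.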

How the results depend on the processing

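Of 117 results on named genes, 93 kept their direction and their side of the threshold in every alternative run. Of these results' 2384 values under alternatives, 2267 did so, 116 kept the direction without passing, 1 passed only there, and 0 turned sign. The number of members lower in MiaPaCa2 KO was 5 with each line fitted alone, against 9; fewer residual degrees of freedom are part of that setting. With each library left out in turn, members higher and lower numbered 18 to 22 and 30 to 38 in Panc1 KO, 15 to 22 and 6 to 11 in MiaPaCa2 KO, 11 to 15 and 32 to 38 for the difference of the effects, and 43 to 47 and 42 to 47 between the wild-type lines. Same-numbered KO and WT libraries shared little deviation from their group means (r between 0.0173 and 0.0777 in Panc1 and between -0.165 and -0.00185 in MiaPaCa2). The highest r with another number was 0.0579, -0.00415 and 0.015 for Panc1 KO replicates 1 to 3, and 0.134, 0.254 and 0.179 for those of MiaPaCa2. With means of 3 libraries, these values cannot decide whether the numbers pair the libraries. With the replicate block, 20 members were higher and 33 lower in Panc1 KO, 18 and 10 in MiaPaCa2 KO, 15 and 33 for the difference, and 44 and 45 between the wild-type lines. Differences of the effects for LINC00346, LINC00853, LINC01003, LINC01137, LINC01629, LINC02595 and LINC02610 lost their call in 1 to 12 settings each, with adjusted p up to 0.502, and the cause was not tested. Unknown read depth limits what can be said of members near 1 FPKM.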
